A study of Mus musculus with 15 samples.

Results

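Fatty acids are burned in mitochondria and in peroxisomes, and 9 mouse genes of these routes were followed across liver and 4 sections of the intestine. They were chosen by name: Cpt1a, Cpt2, Acadm, Acadl, Hadha, Ehhadh, Acaa1a, Acaa1b and Pdk4. All 9 were found in the expression table, each as 1 record, among 23349 genes. All 9 also passed the filter on low values (at least 1 FPKM in at least 3 libraries), as did 13757 genes in all. FPKM is a fragment count divided by transcript length and by library size, so levels are given per length and can be set side by side between genes.

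RNA of whole tissue from wild-type C57BL/6 male mice aged 2 to 3 months was sequenced, with 3 libraries for each of liver (gallbladder removed), duodenum, jejunum, ileum and large intestine (colon), the intestine flushed of its contents. The animals carried no transgene, deletion or treatment in the labels. Libraries carry the numbers 24, 26 and 27 in liver, 24, 27 and 28 in duodenum and jejunum, and 24, 25 and 27 in ileum and large intestine. Whether the 3 libraries of a tissue are separate animals is not stated in the labels, and p-values measure the spread between these libraries, which may be technical. Sequencing depth was not given, and its effect on precision is unknown.

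Long-chain fatty acids enter mitochondria as carnitine esters, made by carnitine palmitoyltransferase 1 on the outer membrane and turned back into acyl-CoA by carnitine palmitoyltransferase 2 on the inner membrane. Each turn of beta-oxidation then removes a short unit through a dehydrogenase, a hydratase, a hydroxyacyl-CoA dehydrogenase and a thiolase. Peroxisomes run a parallel cycle with their own enzymes on very long-chain and branched fatty acids and on bile acid precursors, and many genes of both routes are known targets of the nuclear receptor PPARα in mouse liver. Pyruvate dehydrogenase kinase 4 limits the entry of carbohydrate carbon into the tricarboxylic acid cycle when fat is oxidised.

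As deposited, liver held the highest mean of 7 of the 9 genes, against 14.9% of all genes tested. The genes are described in 3 groups, the mitochondrial genes, the peroxisomal genes and Pdk4. The mitochondrial genes Cpt1a, Cpt2, Acadm, Acadl and Hadha varied between tissue means by 1.37-fold (Hadha) to 2.21-fold (Acadm). The peroxisomal genes varied more, by 4.32-fold for Acaa1a, 7.53-fold for Ehhadh and 57.5-fold for Acaa1b, all from liver down to large intestine. Pdk4 alone had its lowest mean in liver and its highest in duodenum, 7.72-fold apart, and Hadha was the other gene with its highest mean in duodenum (2 of 9, beside 15.3% of all genes). When the libraries were scaled to equal sums of FPKM, 4 rather than 7 genes had their highest mean in liver. Other scalings, median-of-ratios scaling and quantile normalization, put the highest mean of Hadha in liver (114 and 77.8) above duodenum (75.9 and 69.0). Under these scalings Pdk4 had its lowest mean in large intestine (3.04 and 2.84) rather than in liver (3.54 and 3.94).

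**Figure D1:**
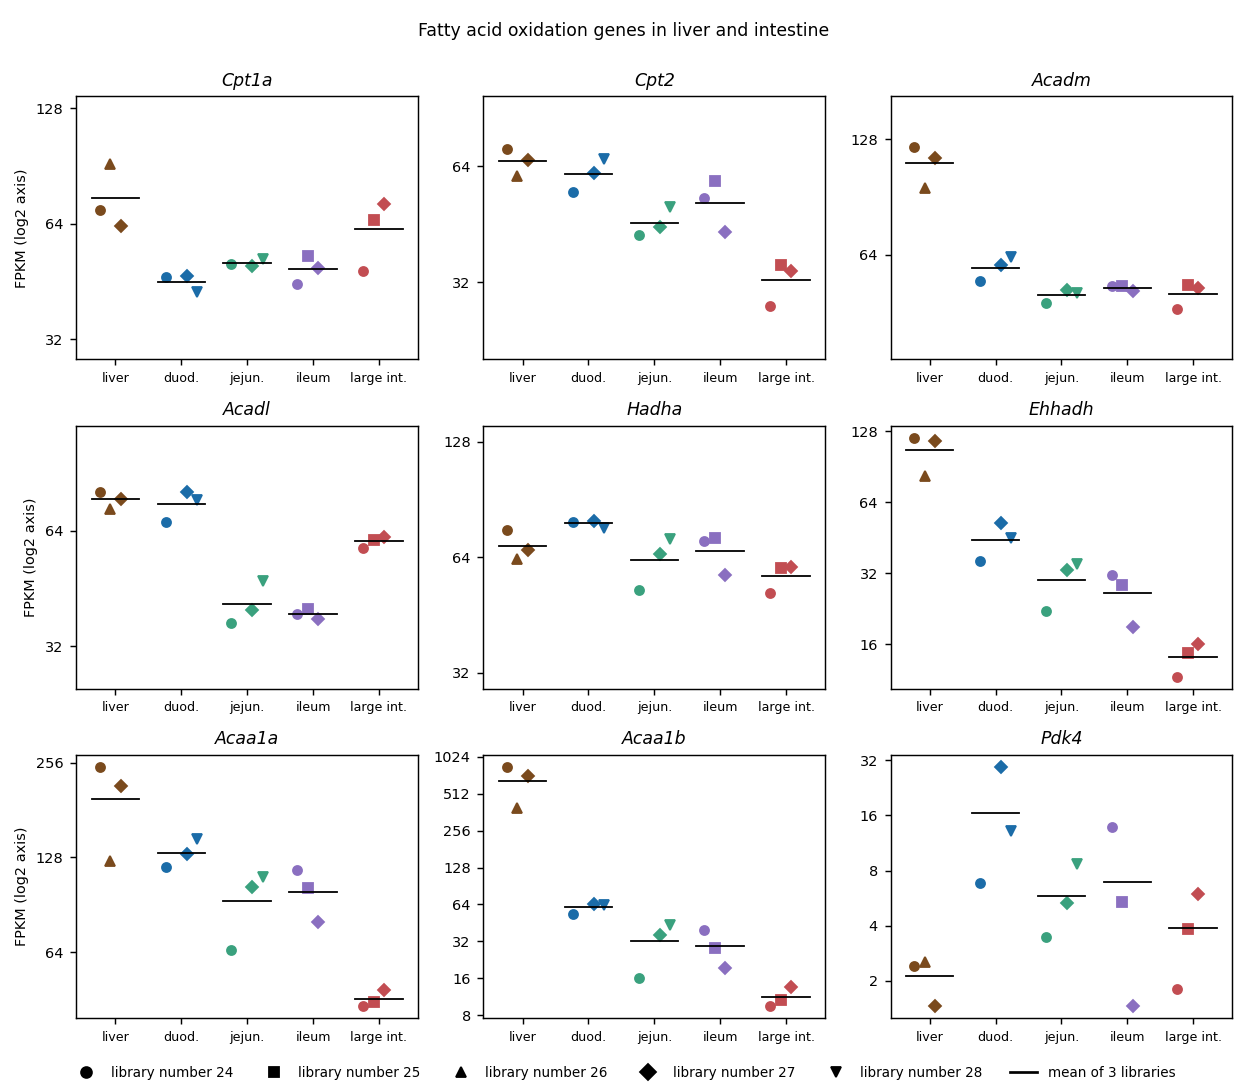
FPKM on a log2 axis of each of the 9 genes in every library of liver, duodenum, jejunum, ileum and large intestine. Points are libraries, shaped by library number, and lines are means of 3 libraries. Ehhadh, Acaa1a and Acaa1b are highest on average in liver and lowest in large intestine. In these deposited values Pdk4 is lowest on average in liver.

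Libraries and labels were checked before the genes were compared. The 10 hepatocyte markers summed to 57147 to 70375 FPKM in liver and to at most 221 FPKM in any intestinal library. Fabp6, the ileal bile acid-binding protein, was at 6731 FPKM in the library labelled jejunum 24 but at 23.1 and 5.61 FPKM in jejunum 27 and 28, and at 255 FPKM in ileum 24 but at 6597 and 8112 FPKM in ileum 25 and 27. Fabp1, the liver fatty acid-binding protein, was at 116 FPKM in jejunum 24 against 2547 and 4182 FPKM in jejunum 27 and 28, and at 2678 FPKM in ileum 24 against 299 and 38.2 FPKM in ileum 25 and 27. The 10 absorptive enterocyte markers summed to 3309 FPKM in jejunum 24 against 9239 and 10279 FPKM in the other jejunum libraries, while ileum 24 (10492 FPKM) was near ileum 25 (10646 FPKM) and ileum 27 was lower (4783 FPKM). The libraries labelled jejunum 24 and ileum 24 thus went against the other libraries of their label for Fabp6 and Fabp1, and whether the labels were exchanged was not tested. Values of the 9 genes without both libraries are given after the comparisons. Because the median of all genes tested lay above liver by 0.58 (duodenum), 0.73 (jejunum), 0.68 (ileum) and 0.83 (large intestine) on the log2 scale in the deposited FPKM, a gene with no difference from liver lay below the median difference of that section. Median-of-ratios scaling, which centres most genes near 0, turned the split of all calls against liver from 4211 higher and 1264 lower to 2521 and 2216 in duodenum, from 5071 and 1230 to 2582 and 2394 in jejunum, from 4723 and 1271 to 2584 and 2368 in ileum, and from 5750 and 1237 to 2770 and 2502 in large intestine.

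The 3 peroxisomal genes were the ones called among the intestinal sections. The sequences just upstream of them are shown because Acaa1a and Acaa1b, both on chromosome 9, have near-identical coding sequences and unlike levels. Their coding sequences were identical at 1228 of 1272 bases (96.5%). Between Acaa1b and Acaa1a lie 184200 bases, which hold 3 other protein-coding genes. The 250 bases before each start are from RefSeq (GRCm38.p6), read 5′ to 3′ on the gene's own strand, at chr9:119341044-119341293 (plus strand) for Acaa1a, chr9:119157094-119157343 (minus strand) for Acaa1b and chr16:21787835-21788084 (minus strand) for Ehhadh. Capitals mark matches on either strand to the CCAAT box (CCAAT) and the GC box (GGGCGG). The TATA box (TATAAA) and the half-site bound by PPAR (AGGTCA) were searched too and had no match in these 3 windows.
Acaa1a: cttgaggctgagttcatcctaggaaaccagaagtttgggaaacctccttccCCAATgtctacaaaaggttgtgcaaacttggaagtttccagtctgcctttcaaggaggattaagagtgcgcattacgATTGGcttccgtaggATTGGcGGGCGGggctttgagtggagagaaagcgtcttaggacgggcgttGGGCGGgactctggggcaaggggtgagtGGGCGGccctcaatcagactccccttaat
Acaa1b: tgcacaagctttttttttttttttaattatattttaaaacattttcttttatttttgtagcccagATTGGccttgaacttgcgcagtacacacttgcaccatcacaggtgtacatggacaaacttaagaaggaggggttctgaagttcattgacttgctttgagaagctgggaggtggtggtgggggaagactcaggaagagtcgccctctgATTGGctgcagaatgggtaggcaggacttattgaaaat
Ehhadh: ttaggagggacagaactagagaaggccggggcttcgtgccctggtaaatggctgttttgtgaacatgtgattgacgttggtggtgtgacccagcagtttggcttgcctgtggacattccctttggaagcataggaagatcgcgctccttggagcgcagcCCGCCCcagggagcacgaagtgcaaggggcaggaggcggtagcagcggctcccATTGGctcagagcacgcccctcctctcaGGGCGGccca

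Matches in the 3 windows did not overlap one another. Acaa1a held 3 CCAAT boxes and 3 GC boxes, Ehhadh 1 and 2, and Acaa1b 2 CCAAT boxes and no GC box. The CCAAT box was found in 33.9%, the GC box in 32.7%, the PPAR half-site in 14.0% and the TATA box in 12.4% of 32841 mouse promoter windows of the same length. G and C made up 53.6% of the Acaa1a window, 60.4% of the Ehhadh window and 41.6% of the Acaa1b window, beside a median of 52.4% over all windows. Among the windows of the other 6 genes, the PPAR half-site letters occurred in Cpt1a and Acadm, 1 match each, and the TATA box letters in none. A match describes letters only, and whether any factor binds there was not measured.

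Acaa1b, which encodes one of the peroxisomal 3-ketoacyl-CoA thiolases that close the peroxisomal cycle, had the steepest difference between liver and gut of the 9 genes. Its level was 845, 388 and 712 FPKM in liver 24, 26 and 27, and 53.5, 64.7 and 63.8 FPKM in duodenum 24, 27 and 28. Jejunum 24, 27 and 28 held 16.1, 36.3 and 43.7 FPKM, ileum 24, 25 and 27 held 39.9, 28.5 and 19.5 FPKM, and large intestine 24, 25 and 27 held 9.51, 10.7 and 13.6 FPKM. No intestinal library overlapped with liver, and no large intestine library overlapped with the small intestine. Among the genes tested, the median rank of Acaa1b fell from 88 in liver to 1201 in duodenum and 5904 in large intestine (1 being the highest of 13757).

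Tests were made with limma on log2(FPKM + 1), with Benjamini-Hochberg adjustment over all genes tested. A gene is called higher or lower where its adjusted p was under 0.05 and its log2 difference at least 1. Acaa1b was lower than in liver by a log2 difference of -3.33 ± 0.37 (SE, n = 3 against 3; limma adjusted p = 2.62e-06) in duodenum and -5.67 ± 0.37 (limma adjusted p = 1.04e-08) in large intestine. The differences in jejunum (-4.34, limma adjusted p = 1.77e-07) and ileum (-4.40, limma adjusted p = 1.58e-07) lay between these. Fewer cells of a type and less RNA per cell cannot be told apart in bulk tissue, here or for any gene below.

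Along the gut, Acaa1b was lower in large intestine than in duodenum (log2 difference -2.34 ± 0.37, limma adjusted p = 0.000145), jejunum (-1.33, limma adjusted p = 0.0112) and ileum (-1.26, limma adjusted p = 0.0135). The call against jejunum was lost without jejunum 28 (limma adjusted p = 0.0525) and that against ileum without ileum 24 (limma adjusted p = 0.0607). Under equal sums of FPKM both of these calls were lost, at -0.91 against jejunum and -0.83 against ileum. The steps from duodenum to jejunum (-1.01, limma adjusted p = 0.0610) and to ileum (-1.08, limma adjusted p = 0.0613) missed the threshold. With jejunum 24 and ileum 24 both left out, the ileum was called lower than duodenum (-1.32, limma adjusted p = 0.00702).

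Acaa1a, the partner thiolase gene, was at 248, 125 and 215 FPKM in liver 24, 26 and 27 and at 120, 131 and 147 FPKM in duodenum 24, 27 and 28. Its jejunum values were 64.8, 103 and 111 FPKM, its ileum values 117, 102 and 80.0 FPKM, and its large intestine values 43.2, 44.5 and 48.6 FPKM. Liver 26 fell within the range of duodenum, whereas every large intestine library lay below every other library. Acaa1a was called lower than liver in large intestine (log2 difference -2.03 ± 0.24, limma adjusted p = 2.75e-06) and jejunum (-1.05 ± 0.24, limma adjusted p = 0.00119). The jejunum call rested on the size of the difference: it was -0.85 without liver 24, -0.95 without liver 27, -0.81 without jejunum 24 and -0.96 with quantile normalization. The duodenum difference of -0.51 missed the p threshold (limma adjusted p = 0.0687). The ileum difference of -0.93 passed it (limma adjusted p = 0.00297) without reaching the size. Without liver 26 or ileum 24 the ileum difference was -1.22 and -1.05 and was called. Both sections were called with median-of-ratios scaling, at -1.29 in duodenum (limma adjusted p = 0.000864) and -1.82 in ileum. Quantile normalization took the duodenum difference past the p threshold (-0.65, limma adjusted p = 0.0139) but not the size.

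Within the gut, Acaa1a was lower in large intestine than in duodenum (-1.52 ± 0.24, limma adjusted p = 0.000127) and ileum (-1.10, limma adjusted p = 0.00217). Without ileum 24 the ileum difference was -0.98, and under equal sums of FPKM -0.64, both under the size threshold. Against jejunum it was -0.98 (limma adjusted p = 0.00530), and -1.22 without jejunum 24.

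The balance between the thiolase genes was turned over between liver and gut. Acaa1b stood at 3.27 ± 0.16 times the level of Acaa1a in liver (SD, n = 3) and the gut ratios, from duodenum through jejunum and ileum to large intestine, were 0.459 ± 0.031, 0.332 ± 0.076, 0.288 ± 0.049 and 0.247 ± 0.030. All 3 liver libraries lay between 3.10 and 3.41, and all 12 intestinal libraries between 0.220 and 0.494. Liver 26 was low for both genes, but its ratio of 3.10 was close to those of the other liver libraries. Of the stretches of 50 bases in the longest coding transcript of each gene, 35.1% in Acaa1a and 46.2% in Acaa1b also occur in transcripts of another gene, mainly its partner, so how the deposited values divide shared reads between them is uncertain. Summed over both genes, the level was lower than liver in every section, from -2.06 ± 0.28 in duodenum (limma adjusted p = 1.27e-05) to -3.81 ± 0.28 in large intestine (limma adjusted p = 1.80e-08). The sum was also lower in large intestine than in duodenum (-1.75), jejunum (-1.08) and ileum (-1.15), with limma adjusted p of 0.000126, 0.00697 and 0.00410.

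Ehhadh encodes the peroxisomal bifunctional enzyme, which carries out the hydratase and hydroxyacyl-CoA dehydrogenase steps before the thiolase. It was at 120, 82.5 and 116 FPKM in liver 24, 26 and 27, at 35.9, 52.5 and 45.1 FPKM in duodenum, at 22.2, 33.2 and 35.0 FPKM in jejunum, at 31.4, 28.5 and 19.0 FPKM in ileum and at 11.6, 14.7 and 16.0 FPKM in large intestine. Liver and large intestine stood apart from every other library, at the top and the bottom, and the duodenum, jejunum and ileum formed a graded and partly overlapping series. Ehhadh was called lower than liver in all 4 sections, with log2 differences of -1.24, -1.79, -1.99 and -2.82 from duodenum to large intestine, each ± 0.23 (SE), and limma adjusted p of 0.000195, 5.35e-06, 2.04e-06 and 4.57e-08. Only Ehhadh and Acaa1b of the 9 were called lower in all 4 sections, and 6.80% of all genes tested were.

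Ehhadh was also lower in large intestine than in duodenum (-1.58 ± 0.23, limma adjusted p = 5.13e-05) and jejunum (-1.02, limma adjusted p = 0.00247). The jejunum call ended without jejunum 27 (-0.94), jejunum 28 (-0.91) or large intestine 24 (-0.90), and under equal sums of FPKM (-0.60). In each case the difference fell under 1. Against ileum it was -0.83 (limma adjusted p = 0.00829), and -1.04 without ileum 27.

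**Figure D2:**
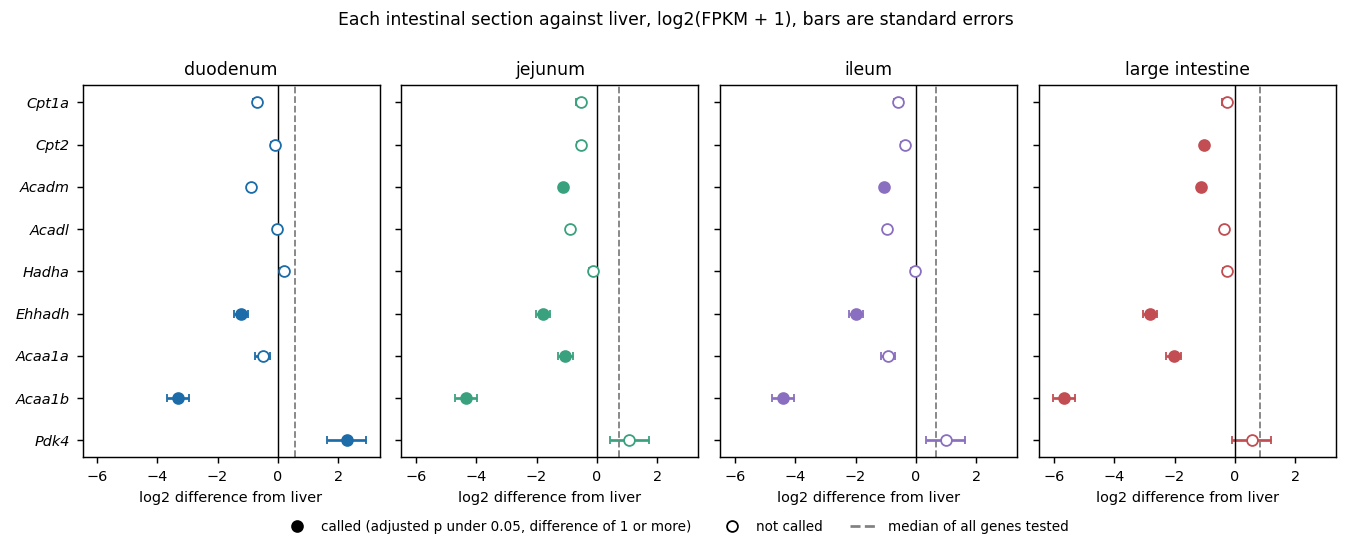
Log2 difference from liver of each of the 9 genes in duodenum, jejunum, ileum and large intestine, on log2(FPKM + 1), with standard errors from limma. Filled points are called and the dashed line is the median of all genes tested (0.58 to 0.83). Acaa1b lies farthest to the left in each panel, from -3.33 to -5.67.

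Cpt1a, the liver form of carnitine palmitoyltransferase 1 and the malonyl-CoA-sensitive gate of mitochondrial uptake, was among the more even genes. Its values were 69.5, 91.6 and 63.3 FPKM in liver 24, 26 and 27, 46.4, 46.7 and 42.6 FPKM in duodenum, 50.2, 49.6 and 51.8 FPKM in jejunum, 44.7, 52.9 and 49.2 FPKM in ileum and 48.2, 65.6 and 71.9 FPKM in large intestine. Every small intestinal library lay below every liver library, whereas large intestine 25 and 27 lay within the liver range. From duodenum to large intestine the log2 differences from liver were -0.70, -0.54, -0.59 and -0.27, each ± 0.15 (SE), with limma adjusted p of 0.000657, 0.00389, 0.00223 and 0.103. None reached a log2 difference of 1 as deposited, and all 4 did, between -1.33 and -1.48, with median-of-ratios scaling. Under equal sums the large intestine difference turned to 0.17.

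Cpt1a made up most of the signal of its family. Of the summed FPKM of Cpt1a, Cpt1b (the muscle form) and Cpt1c (the brain form), Cpt1a took 98.4% ± 0.7 in liver and 94.7% ± 0.7 in large intestine (SD, n = 3). The duodenum, jejunum and ileum shares were 91.8% ± 2.0, 90.4% ± 1.2 and 90.5% ± 2.5. Cpt1b was called higher than liver in duodenum (1.15), jejunum (1.35) and ileum (1.37), at levels of 2.61 to 5.37 FPKM against 0.757 to 1.51 FPKM in liver. Cpt1c was called higher in large intestine (1.20), where it held 1.38 to 1.77 FPKM.

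Cpt2, the inner-membrane carnitine palmitoyltransferase, was near its liver level in duodenum as deposited and was lowest in large intestine. Liver 24, 26 and 27 held 70.9, 60.3 and 66.6 FPKM, duodenum 55.0, 61.6 and 67.0 FPKM, jejunum 42.5, 44.5 and 50.2 FPKM, ileum 52.9, 58.5 and 43.2 FPKM, and large intestine 27.6, 35.4 and 34.2 FPKM. Duodenum overlapped with liver, and large intestine overlapped with no other tissue. The duodenum difference of -0.11 became -0.88 (limma adjusted p = 0.000125) with median-of-ratios scaling and -0.46 (limma adjusted p = 0.00173) with quantile normalization. The large intestine was called lower than liver by -1.01 ± 0.13 (limma adjusted p = 4.82e-06), a size that fell to -0.95 without liver 24, -0.998 without liver 27 and -0.90 without large intestine 24. Under equal sums it was -0.57 and not called. Against duodenum, jejunum and ileum the large intestine differed by -0.90, -0.49 and -0.65, past the p threshold (limma adjusted p = 4.77e-05, 0.00749 and 0.000946) but short of the size.

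The ratio of Cpt1a to Cpt2 in a library set the large intestine apart. It was 1.90 ± 0.18 there (SD, n = 3), beside 1.15 ± 0.32 in liver, 1.11 ± 0.07 in jejunum, 0.963 ± 0.155 in ileum and 0.746 ± 0.105 in duodenum. The lowest large intestine ratio, 1.74, was above the highest of any other library, 1.52 in liver 26.

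Acadm, the medium-chain acyl-CoA dehydrogenase, separated liver from gut with hardly any gradient along the gut. Liver 24, 26 and 27 held 122, 95.6 and 115 FPKM, and all 12 intestinal libraries lay between 46.4 and 63.2 FPKM. The means were 59.3 ± 4.3 in duodenum, 50.2 ± 1.9 in jejunum, 52.6 ± 0.9 in ileum and 50.7 ± 3.8 FPKM in large intestine (SD, n = 3). Acadm was called lower than liver in jejunum (log2 difference -1.12 ± 0.10, limma adjusted p = 1.13e-07), ileum (-1.05, 2.26e-07) and large intestine (-1.11, 1.07e-07), and the duodenum difference of -0.89 (1.47e-06) missed the size threshold. Without liver 24 the ileum difference was -0.98, under equal sums the large intestine difference was -0.67, and neither was called. The duodenum difference was called with the library numbers as a block (-1.02). Median-of-ratios scaling took this duodenum difference to -1.66 (limma adjusted p = 1.91e-08), which was called. Quantile normalization gave -1.09 (limma adjusted p = 1.99e-08), called as well. Under equal sums the duodenum difference was -0.75 and stayed short of the size. No comparison between sections passed the p threshold for Acadm.

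Acadl, the long-chain acyl-CoA dehydrogenase, followed another order as deposited: liver and duodenum high, large intestine next, jejunum and ileum low. Liver held 81.0, 73.2 and 77.7 FPKM, duodenum 67.3, 80.6 and 77.2 FPKM, jejunum 36.9, 39.8 and 47.3 FPKM, ileum 39.0, 40.1 and 37.8 FPKM, and large intestine 57.9, 60.6 and 61.7 FPKM. Liver and duodenum overlapped, jejunum and ileum overlapped, and large intestine stood between both pairs with no overlap. Acadl was past the p threshold in jejunum and ileum against liver (-0.89 and -0.97, limma adjusted p = 1.16e-06 and 5.13e-07) and against duodenum (-0.85 and -0.92, limma adjusted p = 0.000953 and 0.000249), all under a difference of 1. With median-of-ratios scaling all 4 of these differences were called, at -1.83, -1.85, -1.01 and -1.03. Duodenum then also lay below liver, by -0.82 with median-of-ratios scaling (limma adjusted p = 4.71e-05) and -0.37 with quantile normalization (limma adjusted p = 0.00473), against -0.05 as deposited. The large intestine was above jejunum (0.53, limma adjusted p = 0.000588) and ileum (0.61, limma adjusted p = 0.000176), again by less than 1. Under equal sums of FPKM the difference from ileum was 1.07 and was called.

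As a result the ratio of Acadl to Acadm ran against a simple liver-to-colon order. It was low in liver (0.701 ± 0.056, SD, n = 3), jejunum (0.823 ± 0.094) and ileum (0.741 ± 0.012), and high in duodenum (1.26 ± 0.07) and large intestine (1.19 ± 0.06). All 6 libraries of duodenum and large intestine were above 1 and the 9 others below it.

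Hadha, the alpha subunit of the mitochondrial trifunctional protein, was the most even of the 9 genes. It was at 75.6, 63.3 and 66.9 FPKM in liver, 79.3, 79.6 and 76.4 FPKM in duodenum, 52.5, 65.4 and 71.4 FPKM in jejunum, 70.4, 71.8 and 57.5 FPKM in ileum and 51.6, 59.9 and 60.5 FPKM in large intestine. The duodenal libraries were above all others, and large intestine lay below liver without overlap. As deposited, no comparison with liver passed the p threshold for Hadha, with differences from -0.25 to 0.19 and limma adjusted p from 0.0689 to 0.737. With median-of-ratios scaling Hadha was called lower than liver in jejunum (-1.06, limma adjusted p = 2.71e-05) and large intestine (-1.31, limma adjusted p = 3.31e-06), and its duodenum difference turned to -0.58 (limma adjusted p = 0.00384). The duodenum sign also turned with quantile normalization (-0.17), and the large intestine sign with equal sums (0.18). Large intestine against duodenum was the 1 comparison of Hadha past the p threshold (-0.45 ± 0.12, limma adjusted p = 0.00601). Hadhb, the beta subunit, whose gene lies 272 bases away, had no call against liver either, with differences from -0.22 to 0.33 as deposited.

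Set against each other, the peroxisomal and the mitochondrial multifunctional enzymes shifted with tissue. Ehhadh stood at 1.55 ± 0.22 times Hadha in liver (SD, n = 3) and at 0.568 ± 0.105, 0.473 ± 0.045, 0.391 ± 0.058 and 0.246 ± 0.020 times from duodenum to large intestine. Liver libraries ranged from 1.30 to 1.74, and the highest intestinal value was 0.659 in duodenum 27. Dividing a whole library by a factor leaves ratios within it as they are, quantile normalization does not, and the ratios were not tested.

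**Figure D3:**
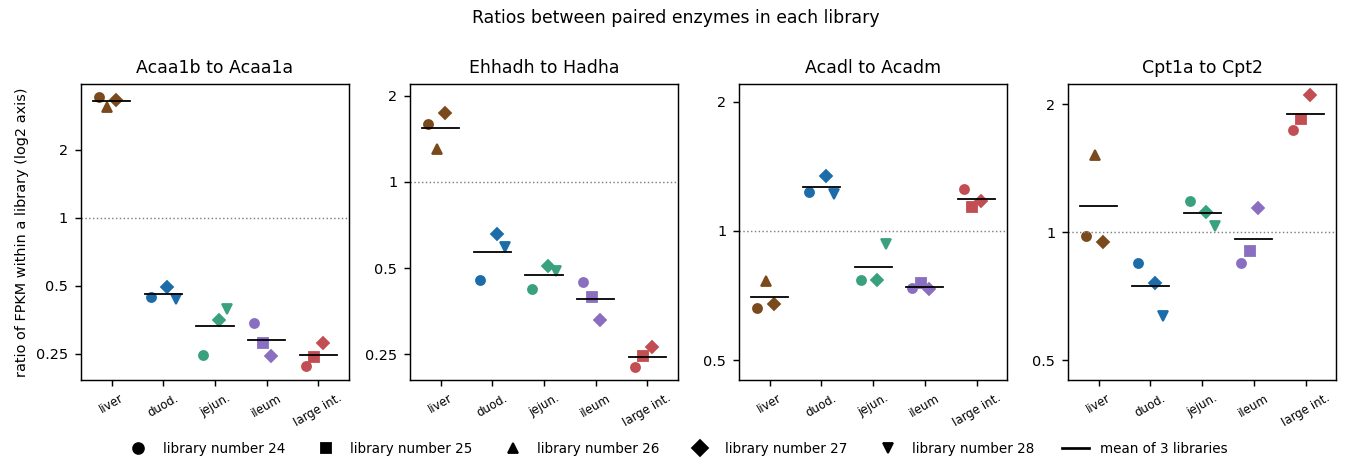
Ratio of FPKM between paired enzymes within each library, on a log2 axis, for Acaa1b to Acaa1a, Ehhadh to Hadha, Acadl to Acadm and Cpt1a to Cpt2. Points are libraries and lines are means of 3 libraries. The first pair of ratios is above 1 only in liver, Acadl to Acadm is above 1 in duodenum and large intestine, and Cpt1a to Cpt2 is highest in large intestine (1.90).

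Pdk4 was the least abundant of the genes and had the largest standard error. It was at 2.40, 2.55 and 1.45 FPKM in liver 24, 26 and 27, 6.83, 29.4 and 13.2 FPKM in duodenum 24, 27 and 28, 3.49, 5.30 and 8.71 FPKM in jejunum, 13.9, 5.38 and 1.46 FPKM in ileum and 1.81, 3.82 and 5.95 FPKM in large intestine. Duodenum was above liver and large intestine without overlap, and the ileum libraries reached from the level of liver into the range of duodenum. Duodenum was called higher than liver (log2 difference 2.28 ± 0.64, limma adjusted p = 0.00620; higher in 3 of 3 libraries). Jejunum, ileum and large intestine differed from liver by 1.07, 0.99 and 0.56, with limma adjusted p of 0.138, 0.169 and 0.429. These differences were 0.37, 0.34 and -0.23 with median-of-ratios scaling. Jejunum was called higher than liver when only these tissues were in the fit (1.07, limma adjusted p = 0.0118). Ileum was called higher without ileum 27 (1.65, limma adjusted p = 0.0228). With the library numbers as a block the duodenum call was lost (limma adjusted p = 0.0552).

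Large intestine was called lower than duodenum for Pdk4 (-1.72 ± 0.64, limma adjusted p = 0.0339). That call was lost without duodenum 27 (limma adjusted p = 0.125), duodenum 28 (0.0662), large intestine 24 (0.119) or large intestine 25 (0.0649). It was also lost with the block (limma adjusted p = 0.151) and under equal sums of FPKM (limma adjusted p = 0.0601). Pdk4 is also well known from fat and muscle, so markers of these were set beside it. The 9 adipocyte markers summed to 315, 128 and 202 FPKM in duodenum 24, 27 and 28 and to 1355 to 2053 FPKM in liver. There Car3, a carbonic anhydrase, gave 1331 to 2037 FPKM of the sum and Lep was at 0. The 7 skeletal and heart muscle markers summed to 0.0812 to 0.284 FPKM in liver, where Ckm, Myh6, Myl1 and Mb were at 0, to 15.3 to 19.2 FPKM in duodenum and to 10.9 to 51.5 FPKM in large intestine. The 8 pancreatic acinar markers summed to 11.5, 2.88 and 197 FPKM in duodenum 24, 27 and 28. Their part in the Pdk4 levels was not tested further.

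Among the 4 kinase genes that act on pyruvate dehydrogenase, Pdk2 gave the largest share in every tissue, from 50.3% ± 1.7 of the summed FPKM in large intestine to 71.5% ± 4.4 in liver (SD, n = 3). Pdk4 gave its largest share in duodenum (19.2% ± 10.8), then 11.6% ± 9.1 in ileum, 10.5% ± 3.2 in jejunum, 7.82% ± 3.71 in large intestine and 5.65% ± 2.63 in liver. Pdk3 was nearly absent from liver (0.114 to 0.297 FPKM) and was called higher in every section, by 3.37 to 3.47. Pdk1 and Pdk2 had no call against liver.

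**Figure D4:**
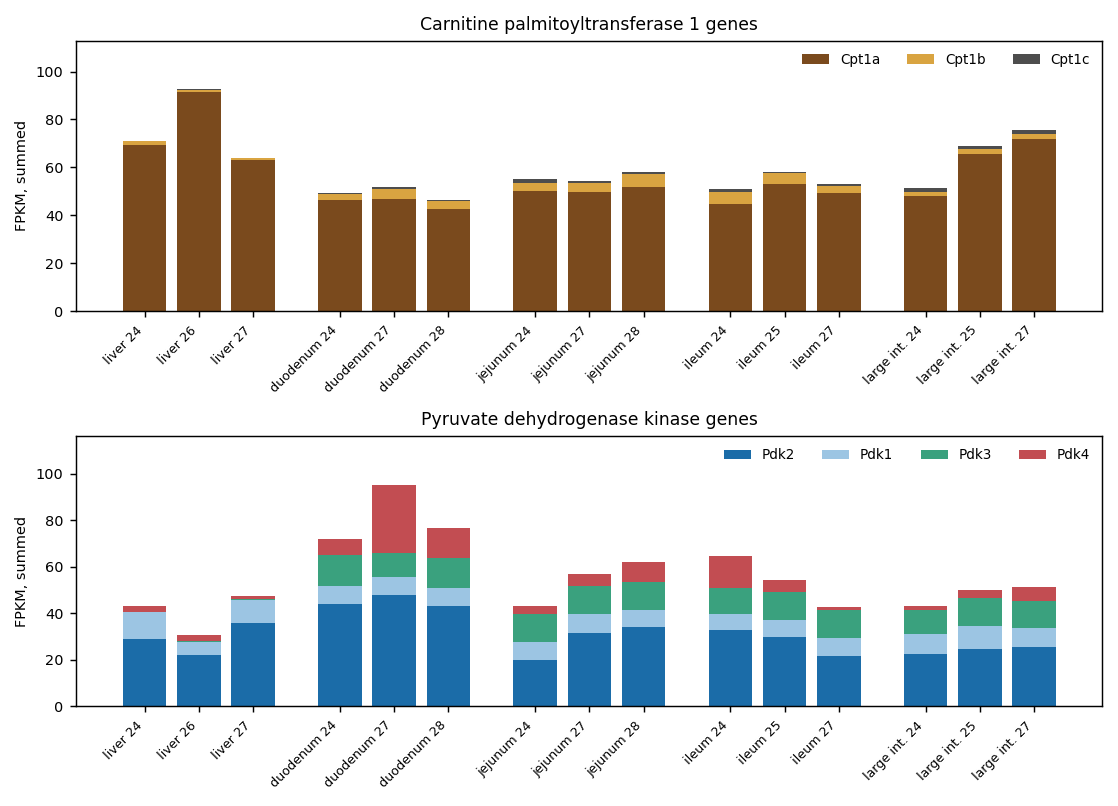
Stacked FPKM of the carnitine palmitoyltransferase 1 genes (upper panel) and the pyruvate dehydrogenase kinase genes (lower panel) in each of the 15 libraries. Cpt1a forms 90.4% to 98.4% of its family by tissue mean, and Pdk4 takes 5.65% to 19.2% of its family, its highest tissue mean being in duodenum.

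Counted over the 9 genes, calls against liver numbered 3, 4, 3 and 5 from duodenum to large intestine as deposited. Duodenum had 1 higher (Pdk4) and 2 lower (Ehhadh and Acaa1b), 3 in all, beside 39.8% of all genes called either way and 9.19% called lower. Jejunum had 4 lower (Acadm, Ehhadh, Acaa1a and Acaa1b), beside 8.94% of all genes called lower. Ileum had 3 lower (Acadm, Ehhadh and Acaa1b), beside 9.24%. Large intestine had 5 lower (Cpt2, Acadm, Ehhadh, Acaa1a and Acaa1b), beside 8.99%. No gene but Pdk4 was called higher in any section, while 30.6%, 36.9%, 34.3% and 41.8% of all genes were, from duodenum to large intestine. By adjusted p alone, 5, 7, 7 and 6 of the 9 differed from liver, beside 80.5%, 84.6%, 83.3% and 85.7% of all genes. The median of the 9 differences was -0.51, -0.89, -0.93 and -1.01 from duodenum to large intestine, and that of all genes was 0.58 to 0.83. With median-of-ratios scaling the lower calls became 5, 8, 7 and 8, beside 16.1%, 17.4%, 17.2% and 18.2% of all genes called lower, and the higher call of Pdk4 in duodenum was kept (1.70). These 4 comparisons share the liver libraries.

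Between sections, calls involved the large intestine only. Large intestine against duodenum had 4 lower (Ehhadh, Acaa1a, Acaa1b and Pdk4), beside 6.84% of all genes called lower. Large intestine against jejunum had 2 lower (Ehhadh and Acaa1b), beside 5.23%, and against ileum 2 lower (Acaa1a and Acaa1b), beside 5.50%. With jejunum 24 and ileum 24 left out these last counts were 3 and 1. Under equal sums of FPKM no lower call was left against jejunum or ileum, and Acadl was called higher than in ileum. By adjusted p alone, the large intestine differed for 8 genes from duodenum, 5 from jejunum and 5 from ileum, beside 64.9%, 44.0% and 48.0% of all genes. In a test of any difference among the 4 sections, Ehhadh, Acaa1a and Acaa1b were called (limma F test, adjusted p = 0.000403, 0.000833 and 0.00119; range of section means 1.58, 1.52 and 2.34), 3 of 9, beside 20.9% of all genes. Cpt2, Acadl and Hadha passed the p threshold (adjusted p = 0.000326, 7.46e-06 and 0.0321) with ranges under 1, so that 6 of 9 passed it, beside 65.9% of all genes. Cpt1a, Acadm and Pdk4 did not.

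Within the small intestine no member was called with all libraries. Jejunum against duodenum had 0 calls, beside 1.79% of all genes, and ileum against duodenum 0, beside 2.56%, although 2 of the 9 (Cpt2 and Acadl) and 2 (Acadl and Ehhadh) passed the adjusted p alone, beside 25.2% and 17.6% of all genes, and 7 and 3 had an unadjusted limma p under 0.05, beside 43.1% and 35.4% of all genes. Ileum against jejunum had 0 calls among the 9 genes and 0 among all genes (0%), with limma; 0 of the 9 and 927 of 13757 genes had an unadjusted p under 0.05. Leaving out jejunum 24 and ileum 24 gave 198 calls over all genes and 0 of the 9 in that last comparison, 100 and 0 of the 9 in jejunum against duodenum, and 631 and 2 of the 9 in ileum against duodenum, where Acaa1b (-1.32, limma adjusted p = 0.00702) and Pdk4 (-1.92, limma adjusted p = 0.0479) were called lower.

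Without these libraries, the jejunum differences from liver were -0.54 for Cpt1a, -0.47 for Cpt2, -1.09 for Acadm, -0.82 for Acadl, -0.0015 for Hadha, -1.60 for Ehhadh, -0.81 for Acaa1a, -3.92 for Acaa1b and 1.34 for Pdk4. The calls in jejunum were then Acadm, Ehhadh and Acaa1b. The ileum differences from liver were -0.53 for Cpt1a, -0.38 for Cpt2, -1.06 for Acadm, -0.97 for Acadl, -0.09 for Hadha, -2.13 for Ehhadh, -1.05 for Acaa1a, -4.65 for Acaa1b and 0.36 for Pdk4. The calls in ileum were Acadm, Ehhadh, Acaa1a and Acaa1b, and Pdk4 moved the most, from 0.99 with all libraries. Large intestine was called lower than jejunum for Ehhadh (-1.22), Acaa1a (-1.22) and Acaa1b (-1.75) and lower than ileum for Acaa1b (-1.02).

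Cell-type markers differed between the sections as well. The 10 absorptive enterocyte markers summed to 13405 to 15081 FPKM in duodenum, 3309 to 10279 in jejunum, 4783 to 10646 in ileum and 571 to 986 in large intestine, and to 115 to 129 in liver. The lowest jejunum value was in jejunum 24 and the lowest ileum value in ileum 27, the libraries with the least Ehhadh, Acaa1a and Acaa1b of each section. Large intestine 24 likewise had the lowest sum (571) and the least of these genes in its section. Duodenum went the other way. Duodenum 27 had its lowest sum (13405) but its most Ehhadh and Acaa1b, and duodenum 24 its highest sum (15081) but its least of all 3 genes. The 8 smooth muscle markers summed to 546 to 664 FPKM in duodenum, 632 to 1153 in jejunum, 578 to 625 in ileum, 2358 to 3442 in large intestine and 18.4 to 20.3 in liver. The 6 colonocyte markers in the table (of 7) summed to 1355 to 2605 FPKM in large intestine and to at most 162 FPKM elsewhere. No marker of these 3 lists was at 0 in all libraries of a tissue. The part of cell makeup in the differences was not tested.

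Other genes of the pathways, taken from lists chosen with earlier results of these data known, are described by counts. Over all genes, 30.6%, 36.9%, 34.3% and 41.8% were called higher than liver from duodenum to large intestine. Lower calls made up 9.19%, 8.94%, 9.24% and 8.99%. With median-of-ratios scaling the shares were 18.3%, 18.8%, 18.8% and 20.1% higher and 16.1%, 17.4%, 17.2% and 18.2% lower. The counts of this and the following lists stand beside these shares. Of 26 other mitochondrial beta-oxidation genes, 3 were called higher and 6 lower than liver in duodenum, 2 and 13 in jejunum, 2 and 12 in ileum and 1 and 12 in large intestine, with medians from -0.93 to -0.63. Median-of-ratios scaling gave 1 call upward and 16 downward in duodenum, 0 and 19 in jejunum, and 0 and 20 in both ileum and large intestine. Acaa2, the mitochondrial thiolase, was at 448 to 573 FPKM in liver and 56.1 to 83.0 FPKM in large intestine (log2 difference -2.86). Acadsb, the short/branched-chain acyl-CoA dehydrogenase, was lower in every section, by -2.04 to -2.79. Hadh, the short-chain hydroxyacyl-CoA dehydrogenase, went the other way in the small intestine: 462 to 536 FPKM in duodenum against 120 to 165 FPKM in liver (1.76), with large intestine at 140 to 156 FPKM (0.05, not called).

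Of 25 other peroxisomal beta-oxidation genes 23 were tested, and 2, 2, 2 and 1 were called higher and 12, 13, 13 and 16 lower than liver from duodenum to large intestine. Their median differences were -1.34, -2.35, -2.49 and -3.24, below those of all genes (0.58 to 0.83). With median-of-ratios scaling 1 was called higher in each section and 17, 17, 17 and 18 lower. Scp2, the sterol carrier protein with a thiolase domain, held 1046 to 1188 FPKM in liver and 39.4 to 46.5 FPKM in large intestine. Slc27a2, a very long-chain acyl-CoA synthetase, dropped furthest in large intestine (-6.88), Nudt7, a peroxisomal CoA hydrolase, in jejunum (-5.43) and ileum (-5.47), and Hacl1, the lyase of alpha-oxidation, in duodenum (-4.76). Hao2, a peroxisomal hydroxyacid oxidase, stood at 139 to 201 FPKM in large intestine and under 0.1 FPKM in every liver library.

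**Figure D5:**
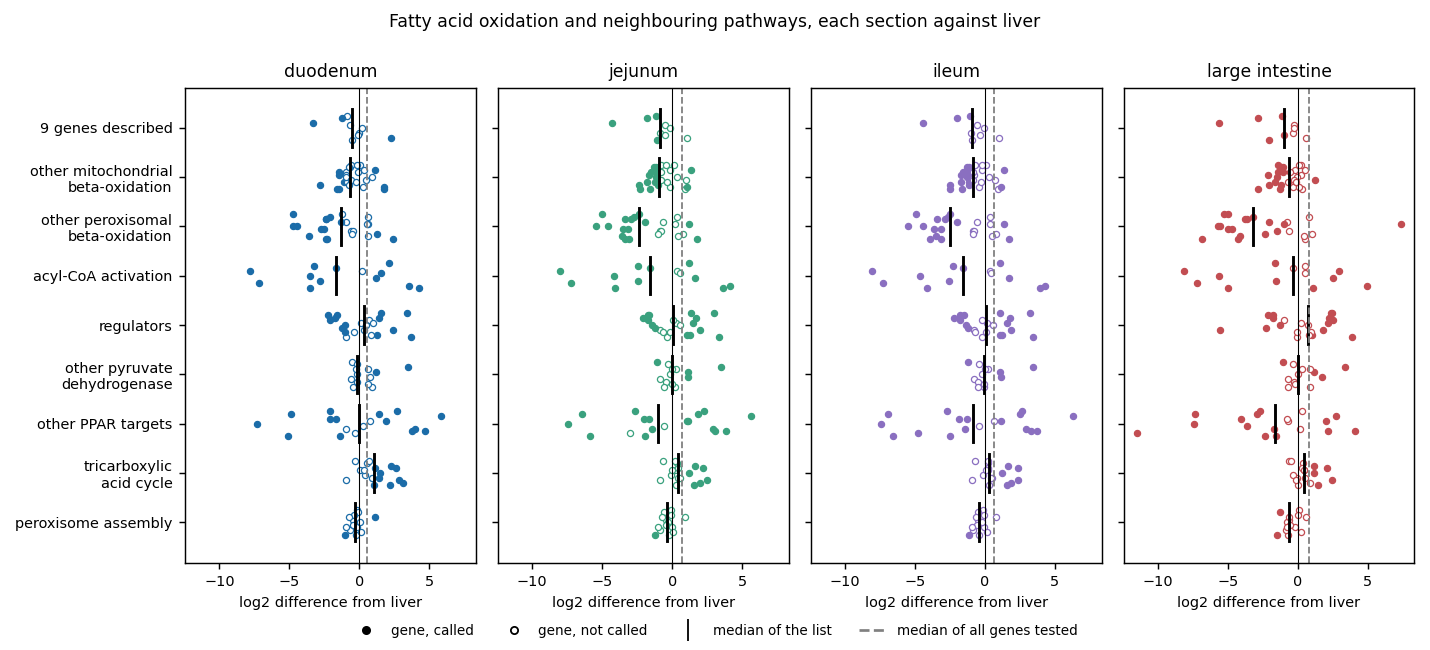
Log2 difference from liver of every tested gene of the 9 described and of 8 neighbouring gene lists, in duodenum, jejunum, ileum and large intestine. Filled points are called, black bars are list medians and the dashed line is the median of all genes tested. The peroxisomal list has medians from -1.34 to -3.24. The tricarboxylic acid cycle list has no gene called lower, beside 8.94% to 9.24% of all genes.

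Genes that activate fatty acids split by isoform. Of 14, 13 were tested, with 5 higher and 7 lower in duodenum, 4 and 7 in jejunum and ileum, and 4 and 6 in large intestine. Slc27a5, the bile acyl-CoA synthetase, was at 270 to 322 FPKM in liver and under 0.5 FPKM in every intestinal library (-7.81 to -8.14). Slc27a4, the main fatty acid transport protein of enterocytes, was at 156 to 195 FPKM in duodenum and 7.25 to 9.02 FPKM in liver (4.30). Acss1, the mitochondrial acetyl-CoA synthetase, rose furthest in large intestine (4.95), and Acsl5, a long-chain acyl-CoA synthetase, was higher in duodenum (2.14) and lower in large intestine (-1.62). Acsm3, a medium-chain acyl-CoA synthetase, had the widest range among sections of this list (3.79).

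Regulators of the pathway, 21 genes, gave 6 higher and 7 lower in duodenum and 8 and 6 in each other section. With median-of-ratios scaling this became 4 and 9, 4 and 10, 4 and 8, and 7 and 8. Ppara, the receptor for fatty acids that drives oxidation genes in liver, was lower in every section, at 18.2 to 27.3 FPKM in liver and 2.69 to 5.68 FPKM in large intestine (-2.25; -1.20 to -1.24 in the small intestine). Ppard, its widely expressed relative, was at 2.12 to 4.53 FPKM in liver and 36.6 to 58.0 FPKM in the gut (3.34 to 3.86), and Pparg, the adipocyte and colonocyte form, was called higher in large intestine alone (2.51). Creb3l3, a liver and gut activator of lipid genes, was at 109 to 139 FPKM in liver and 0.949 to 2.16 FPKM in large intestine (-5.58). Lpin1 and Sirt3, a coactivator and a mitochondrial deacetylase, were lower in every section, down to -2.21 and -2.18. Hnf4a, the most abundant of the list, had no call.

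Of 13 other genes around pyruvate dehydrogenase, 2 were higher and 0 lower in duodenum and 3 and 1 in each other section, as deposited. Mpc2, a subunit of the mitochondrial pyruvate carrier, was the lower one (-1.12, -1.22 and -1.06). Pdpr, a regulatory subunit of the phosphatase, had a range of 1.11 among sections. Median-of-ratios scaling turned the counts of these 13 genes to 1 higher and 3 lower in duodenum. They became 1 and 6 in both jejunum and ileum, and 2 and 6 in large intestine. Of 17 tricarboxylic acid cycle genes, 9, 6, 6 and 5 were called higher than liver from duodenum to large intestine and 0 lower. Over all genes, 30.6%, 36.9%, 34.3% and 41.8% were called higher and 8.94% to 9.24% lower. The counts in jejunum and ileum were thus near the share of all genes. Mdh2 led in duodenum (3.09), Idh3a in jejunum (2.50) and large intestine (2.45) and Cs in ileum (2.39). With median-of-ratios scaling the tricarboxylic acid cycle counts became 5 higher and 2 lower, 3 and 3, 2 and 3, and 2 and 6.

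Of 20 other PPAR targets 18 were tested, with 7 higher and 7 lower in duodenum, 8 and 8 in jejunum, 7 and 9 in ileum and 4 and 10 in large intestine. Fabp2, the intestinal fatty acid-binding protein, led the higher genes in the small intestine (5.64 to 6.32), and Ucp2, an inner-membrane carrier, in large intestine (4.06). Cyp4a14, a fatty acid omega-hydroxylase, led the lower genes in the small intestine (-7.32 to -7.46). Fabp1, the liver fatty acid-binding protein, fell furthest in large intestine (-11.51), from 7131 to 10129 FPKM in liver to 0.917 to 3.69 FPKM. Of 15 peroxisome assembly genes 14 were tested, and 1 higher (Pex10, 1.11) and 1 lower were called in duodenum, 0 and 1 in jejunum and ileum and 0 and 2 in large intestine. Pex5, the receptor that imports peroxisomal enzymes, was lower in all 4 sections (-1.06 to -1.47), and Pex16 in large intestine (-1.27). With median-of-ratios scaling 7, 9, 9 and 10 of the 14 assembly genes were called lower and 0 higher.

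Genes most like each of the 9 over the 15 libraries were named by Pearson's r on log2(FPKM + 1), as a description in which tissue differences and library quality are shared. For Acaa1b they were Cat (catalase, 0.99), Cml1 (0.99) and Lonp2 (the peroxisomal protease, 0.99), for Ehhadh Tlcd2 (0.99), Aldh1a7 (0.98) and Cat (0.98), and for Acaa1a Shpk (0.99), Hsd17b4 (the second peroxisomal multifunctional enzyme, 0.98) and Eci1 (0.97). The mitochondrial genes were like Pex19 and Pex16 (Cpt2, 0.97 and 0.96), Cyp2c39, Glo1 and Isoc2a (Acadm, 0.99), Adck1, Chchd10 and Ifi27l1 (Acadl, 0.95 to 0.91) and Ces2a, Cyp4f13 and Sdha (Hadha, 0.94 to 0.90). Cpt1a was most like Ccl9, Epb4.1 and Acsl4 (0.91 each), and Pdk4 like Sec24d, D5Ertd579e and Tmcc1 (0.93 to 0.91). Among the 9 themselves, Ehhadh and Acaa1b had r = 0.98 and Acaa1a and Cpt2 r = 0.94, while Pdk4 with Ehhadh had r = 0.01.

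By position the 9 genes lie on 8 chromosomes of mm10, and both thiolase genes on chromosome 9. The deposited records place Acaa1a at chr9:119341294-119350295, Acaa1b at chr9:119148043-119157093, Ehhadh at chr16:21761285-21787834, Hadha at chr5:30118304-30154980 and Pdk4 at chr6:5483351-5496278. Cpt1a lies at chr19:3323301-3385733, Cpt2 at chr4:107903982-107923589, Acadm at chr3:153922353-153944643 and Acadl at chr1:66830839-66863309. Exons of Acaa1a share 290 bases with Myd88, those of Acaa1b 224 bases with Dlec1 and those of Hadha 75 bases with Garem2, each on the other strand. Whether the counting used strand was not given in the sources used here, so reads in those bases cannot be told apart, and the other 6 genes have no such overlap.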

How the data were processed

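FPKM values in 15 libraries (3 for each of 5 tissues) were made by the authors; per the submitters' processing notes, TopHat2 2.0.3, Bowtie 0.12.8, SAMtools 0.1.18 and Cufflinks 2.0.0 were used with mm10. How reads matching several genes were treated was not given in the sources used here. The table held 23845 records; those sharing a symbol were summed to 23349 genes, and 27 records with a date in place of a symbol were kept under it. Genes with at least 1 FPKM in at least 3 libraries (13757) were tested on log2(FPKM + 1) with limma 3.58.1 in R 4.3.3 (a mean per tissue, trend and robust moderation), with Benjamini-Hochberg adjustment within each of 10 comparisons. A pseudocount of 1 understates changes of low genes. The procedure was tested on simulated data. Depth is unknown, so no counting intervals are given. Alternatives covered the pseudocount, the filter, 3 scalings, the libraries used and a block on library number.

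The members and gene lists were chosen with earlier results of these data known. Genes named besides the members are, per list, those with the largest called difference each way in each section against liver, the widest range among sections or the highest mean, the 3 most correlated with each member, and the Cpt1, Pdk and PPAR relatives; Hadhb was chosen after its values were seen. Some genes that this rule names are not reported here. Promoters and transcripts came from RefSeq (GRCm38.p6) and GENCODE M21, and all 9 members matched.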

Additional observations from a re-analysis of the deposited data

How the results depend on the processing

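Under median-of-ratios scaling, the number of the 9 genes called against liver became 6 (duodenum), 8 (jejunum), 7 (ileum) and 8 (large intestine), 1 was called in jejunum and in ileum against duodenum, and 5 differed among sections. Under equal sums of FPKM 3 were called in large intestine against liver and 2 in ileum against duodenum, and 4 had their highest mean in liver. Large intestine then had 0 calls against jejunum, where Ehhadh (-0.60) and Acaa1b (-0.91) were lost, and 1 against ileum. That 1 was Acadl, called higher in large intestine (1.07), while Acaa1a (-0.64) and Acaa1b (-0.83) were lost. The deposited FPKM summed to 384287 to 389243 in large intestine libraries and to 428494 to 541581 in the others. Ileum against duodenum gave 1 with only the tissues compared and 2 without jejunum 24 and ileum 24, which gave 1 for large intestine against ileum. With the replicate block ileum against liver gave 5, gaining Acadl and Acaa1a; duodenum against liver gained Acadm and lost Pdk4 (limma adjusted p = 0.0552), and large intestine against duodenum lost Pdk4 (0.151). Deviations of same-numbered libraries correlated by -0.49 to 0.16 over 22 pairs, 4 of them over 0.1. Pairs of unlike number correlated by -0.40 to 0.52 over 68 pairs, 10 of them over 0.1. The lowest value (jejunum 24 with ileum 24) and the highest (jejunum 24 with ileum 27) involve libraries that went against their label. These correlations therefore cannot show whether the numbers pair samples, and the main tests did not pair them. Whether libraries of 1 number share an animal is not stated in the labels. Leaving out 1 library at a time gave 3 to 3 calls in duodenum, 3 to 4 in jejunum, 2 to 5 in ileum and 4 to 5 in large intestine against liver, 0 to 1 in jejunum and in ileum against duodenum, 3 to 4, 0 to 3 and 0 to 3 in large intestine against duodenum, jejunum and ileum, 0 to 0 in ileum against jejunum, and 3 to 4 among sections. No called difference of a member changed sign; 7 of 36 differences from liver and 9 of 54 between sections, none of them called, did under a scaling. The cause of these changes was not tested, and unknown depth limits the precision of low values such as Pdk4.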
